A study of Saccharomyces cerevisiae with 4 samples.

Results

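The genes of the Atg1 kinase complex of budding yeast, Saccharomyces cerevisiae, are 5 open reading frames (ORFs) of the 6678 in the deposited table, chosen by their systematic names. They are ATG1 (YGL180W), ATG13 (YPR185W), ATG17 (YLR423C), ATG29 (YPL166W) and ATG31 (YDR022C), and all 5 had a value in every library. Autophagy carries cytoplasm to the vacuole inside double-membrane autophagosomes, and this complex is the switch that starts it. Atg1 is a protein kinase and Atg13 is its regulatory partner, which the TORC1 kinase keeps phosphorylated in rich medium. When nitrogen runs out, Atg13 loses phosphate and joins Atg1 to Atg17. Atg17, Atg29 and Atg31 form the scaffold on which the phagophore assembly site, the birthplace of the autophagosome, is built.

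Total RNA from 4 cultures of the haploid MATα laboratory strain SEY6210 was sequenced, as 1 library each. The tested genotype was strain JMY047, in which PHO23, for a subunit of a histone deacetylase complex, Rpd3L, was replaced by the marker HIS5. Wild type was SEY6210 itself, and both strains share its alleles his3-∆200, leu2-3,112, lys2-801, suc2-∆9, trp1-∆901 and ura3-52, with GAL. The groups were the deletion and wild type after 2 h in nitrogen-free SD-N medium, and the deletion and wild type in mid-log growth in rich YPD medium. Starvation below stands for the whole change from YPD to SD-N. With 1 library in each group no difference has a replicate check, and no p-value can be given. The values are RPKM, in which reads are normalised to ORF length and to library size, which sets genes of different length on a common scale. RNA came from whole cultures, so fewer cells with a transcript and less transcript per cell cannot be told apart.

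Depth was roughly 19600000 to 27500000 reads per library, estimated from the smallest steps in the RPKM values. Intervals below (95%, Poisson for a level and Clopper-Pearson for a ratio) rest on that estimate and cover counting error only. PHO23 stood at 0.0546 and 0.13 RPKM in the starved and growing deletion, against 23.4 and 12.3 RPKM in starved and growing wild type. The 8 nitrogen-repressed genes listed as a check of the medium (GAP1, MEP2, DAL80 and others) summed to 8011 and 10172 RPKM in the starved deletion and wild type, against 52.5 and 55.1 RPKM in the growing deletion and wild type. The 4 alpha-cell markers were present in every library and lower in the deletion, summing to 2980 and 19169 RPKM in the starved deletion and wild type, against 2148 and 8081 RPKM in the growing deletion and wild type. The 7 a-cell markers, normally silent in such cells, summed to 647 and 2883 RPKM in the starved deletion and wild type, against 17.1 and 58.1 RPKM in the growing deletion and wild type. None of the 7 was at 0 in any library, and all 7 were higher in starved than in growing cells of each genotype. The part of either marker set in the results below was not tested.

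The stretches just before the ORFs are shown for 4 of the genes, since the transcripts differ in their behaviour and the letters around each start can be compared. Each runs from 250 bases before the start codon to 50 bases into the ORF, on the strand of the gene, from the RefSeq R64 genome. R64 is the sequence behind sacCer3, the build in the submitters' notes. Capitals mark matches, on either strand, to any of 5 short motifs: GCCGCC (core of the URS1 element bound by Ume6), GATAAG (Gln3 and Gat1, activators of nitrogen-repressed genes), TGACTC (core of the Gcn4 site), AGGGG (stress element of Msn2 and Msn4, also bound by Rph1) and CACGTG (E-box). ATG1 and ATG29 had the largest folds, ATG13 is the regulatory partner, and ATG31 went its own way.
ATG1, chrVII:159815-160114, plus strand: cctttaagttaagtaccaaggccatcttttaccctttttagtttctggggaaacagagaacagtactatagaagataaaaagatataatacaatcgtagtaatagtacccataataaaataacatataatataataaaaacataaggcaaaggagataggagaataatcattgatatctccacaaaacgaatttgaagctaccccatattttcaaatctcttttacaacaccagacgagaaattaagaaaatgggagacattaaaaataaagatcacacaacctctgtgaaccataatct
ATG13, chrXVI:906968-907267, plus strand: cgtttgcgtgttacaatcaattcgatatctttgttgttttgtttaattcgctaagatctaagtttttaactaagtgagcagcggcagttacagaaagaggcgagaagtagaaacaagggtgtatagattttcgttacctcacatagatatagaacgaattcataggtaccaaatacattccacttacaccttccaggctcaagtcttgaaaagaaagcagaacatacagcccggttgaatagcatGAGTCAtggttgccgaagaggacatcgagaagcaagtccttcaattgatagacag
ATG29, chrXVI:237088-237387, plus strand: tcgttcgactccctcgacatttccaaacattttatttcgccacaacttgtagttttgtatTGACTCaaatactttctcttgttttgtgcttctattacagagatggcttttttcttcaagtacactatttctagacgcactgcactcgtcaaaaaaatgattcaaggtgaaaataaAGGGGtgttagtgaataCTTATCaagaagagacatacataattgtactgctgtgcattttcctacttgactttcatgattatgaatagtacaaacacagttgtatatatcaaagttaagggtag
ATG31, chrIV:488613-488912, minus strand: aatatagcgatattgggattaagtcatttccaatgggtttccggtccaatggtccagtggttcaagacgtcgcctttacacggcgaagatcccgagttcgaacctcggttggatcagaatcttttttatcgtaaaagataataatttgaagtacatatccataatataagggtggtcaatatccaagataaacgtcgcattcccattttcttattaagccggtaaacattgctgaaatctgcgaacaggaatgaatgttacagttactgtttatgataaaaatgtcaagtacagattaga

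ATG29 held 3 of the motifs. TGACTC began 190 bases before the start codon, AGGGG began 74 bases before it, and the reverse complement of GATAAG began 57 bases before it. ATG13 held the reverse complement of TGACTC beginning 5 bases before the start codon and ending on its first base. ATG1, ATG17 and ATG31 held none of the 5. Over 5980 promoters cut the same way, GATAAG was present in 14.7%, TGACTC in 7.96%, AGGGG in 21.6%, GCCGCC in 5.13% and CACGTG in 2.89%, on either strand. None of the 5 motifs overlapped another in these windows. The ATG31 window also holds a whole tRNA gene, YNCD0007C of 74 bases, on the same strand and from 208 to 135 bases before the ATG31 start codon. A match is a string of letters and not a measured site, and its absence says only that these letters are not in the window.

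All 5 transcripts were lowest in growing wild type and next lowest in the growing deletion, and both starved libraries stood above both growing ones. ATG1, which encodes the kinase, was at 38.6 RPKM in the starved deletion, 51.3 in starved wild type, 7.92 in the growing deletion and 2.62 in growing wild type. Its span from the lowest to the highest library was 19.6-fold, the widest of the 5. ATG13, for the regulatory partner, was at 55.3 RPKM in the starved deletion, 54.5 in starved wild type, 32.5 in the growing deletion and 15.7 in growing wild type. Its starved libraries differed by less than counting error, and its span was 3.52-fold.

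ATG17, for the dimeric scaffold protein, was at 26.4 RPKM in the starved deletion, 26.6 in starved wild type, 17.5 in the growing deletion and 9.23 in growing wild type. Its span of 2.89-fold was the narrowest, and its starved libraries also lay within counting error of each other. ATG29, for a scaffold subunit, was at 72.4 RPKM in the starved deletion, 59.6 in starved wild type, 21.8 in the growing deletion and 5.26 in growing wild type. Its span was 13.8-fold, with the starved deletion on top. ATG31, whose protein links Atg29 to Atg17, was at 67.5 RPKM in the starved deletion, 106 in starved wild type, 21.7 in the growing deletion and 16.0 in growing wild type. Its span was 6.62-fold, with starved wild type on top.

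**Figure D1:**
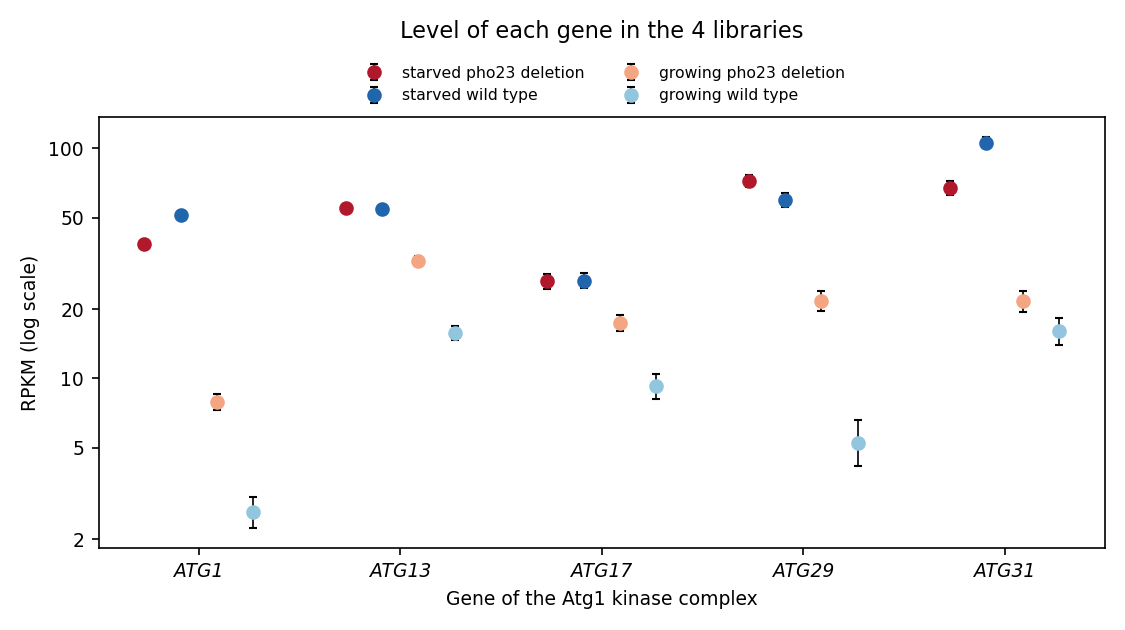
RPKM on a log scale for each of the 5 genes in the starved pho23 deletion, starved wild type, the growing pho23 deletion and growing wild type. Each point is 1 library and bars are 95% Poisson intervals of the estimated reads; growing wild type is the lowest point of every gene, at 2.62 RPKM for ATG1 and 16.0 RPKM for ATG31.

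The order of the 5 levels changed between libraries. In the starved deletion the order was ATG29, ATG31, ATG13, ATG1 and ATG17, with ATG29 (interval 68.1 to 77.0 RPKM) and ATG31 (63.1 to 72.1 RPKM) overlapping. In starved wild type it was ATG31, ATG29, ATG13, ATG1 and ATG17, and the intervals of ATG29 (55.4 to 64.0 RPKM) and ATG1 (49.3 to 53.2 RPKM) both overlapped that of ATG13 (52.3 to 56.7 RPKM). Beside all ORFs, ATG1 was above 44.7% of them in the starved deletion and above 54.5% in starved wild type, so that the starved kinase transcript was near the middle of the range. In the growing deletion the order was ATG13, ATG29, ATG31, ATG17 and ATG1, with ATG29 (19.7 to 24.1 RPKM) and ATG31 (19.5 to 24.1 RPKM) overlapping. In growing wild type it was ATG31, ATG13, ATG17, ATG29 and ATG1, with ATG31 (13.9 to 18.3 RPKM) and ATG13 (14.6 to 16.8 RPKM) overlapping. ATG1 was above 17.5% of all ORFs in the growing deletion and above 6.9% in growing wild type.

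Expressed as shares of their summed RPKM, ATG1 and ATG29 took more of the total in both starved libraries than in growing wild type, and ATG13 and ATG17 took less. ATG1 held 14.8% in the starved deletion, 17.2% in starved wild type, 7.8% in the growing deletion and 5.4% in growing wild type. ATG13 held 21.3% and 18.3% in the starved deletion and wild type, against 32.1% and 32.2% in the growing deletion and wild type. ATG29 was higher in the deletion under both conditions, with 27.8% in the starved deletion against 20.0% in starved wild type, and 21.5% in the growing deletion against 10.8% in growing wild type. ATG31 was lower in the deletion under both, with 25.9% against 35.6% in starved wild type and 21.4% against 32.8% in growing wild type. The 5 genes summed to 16.0% of the RPKM of 25 core autophagy genes in the starved deletion and 19.7% in starved wild type, against 14.8% in the growing deletion and 10.9% in growing wild type.

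**Figure D2:**
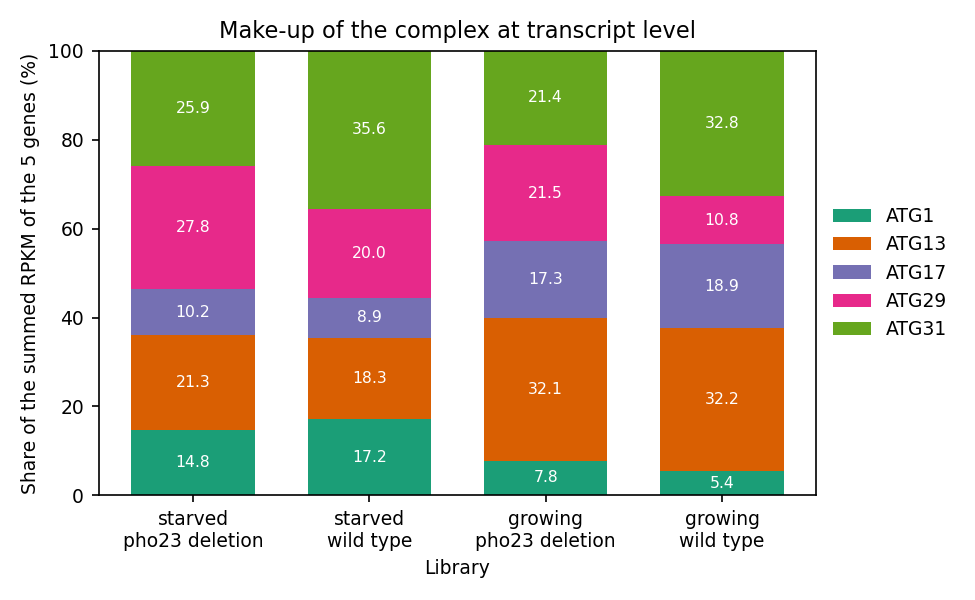
Share of each gene in the summed RPKM of the 5 genes, in percent, as stacked bars with 1 library each. The ATG1 segment is 14.8% and 17.2% in the starved deletion and wild type, against 7.8% and 5.4% in the growing deletion and wild type.

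In growing cells the deletion had more transcript of all 5 genes than wild type. The comparison asks whether Pho23 bears on the level of these transcripts while nitrogen is plentiful. The 5 summed to 101 RPKM in the growing deletion, against 48.8 RPKM in growing wild type, a ratio of 2.08. The scaffold gene ATG29 differed most, at 4.14 times wild type (interval 3.22 to 5.32), and ATG1 came next at 3.02 times (2.54 to 3.62). ATG13 was at 2.07 times (1.90 to 2.25), ATG17 at 1.90 times (1.64 to 2.20) and ATG31 at 1.35 times (1.14 to 1.61). None of these intervals reached 1.

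Folds across the whole table were computed as log2((RPKM + 1)/(RPKM + 1)), a scale that shrinks the change of weakly expressed genes. On that scale ATG29 was at 1.86, ATG1 at 1.3, ATG13 at 1.0, ATG17 at 0.85 and ATG31 at 0.41. The median of the 5 was 1.0, against 0.07 over the 5439 ORFs that reached 10 RPKM in either growing library, called eligible here. ATG1 did not reach 10 RPKM in a growing library, so 4 of the 5 passed the filter. Of these, ATG29 and ATG13 were at least 2-fold higher and none was 2-fold lower, against 3.95% of eligible ORFs that were at least 2-fold higher and 2.08% that were 2-fold lower. Without the filter 3 of 5 were at least 2-fold higher, with ATG1 added, against 3.74% of all ORFs. The ATG1 fold depended on the pseudocount, at 1.56 with 0.1 and 0.76 with 5, where it was below ATG13 at 0.86. ATG13 lay almost on the 2-fold line. Of eligible ORFs, 0.6% had a higher fold than ATG29, against 2.0% above ATG1, 3.9% above ATG13, 5.6% above ATG17 and 19.8% above ATG31. Among 25 core autophagy genes ranked by this fold, ATG29 was at rank 2, ATG1 at 5, ATG13 at 8, ATG17 at 9 and ATG31 at 19. The count of 2 fell to 1, ATG29 alone, with a pseudocount of 5 or with median-of-ratios or upper-quartile scaling, and to 1, ATG13 alone, with a minimum of 30 RPKM. The ATG29 value in growing wild type rests on an estimated 78 reads, the fewest of any value of the 5 genes.

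**Figure D3:**
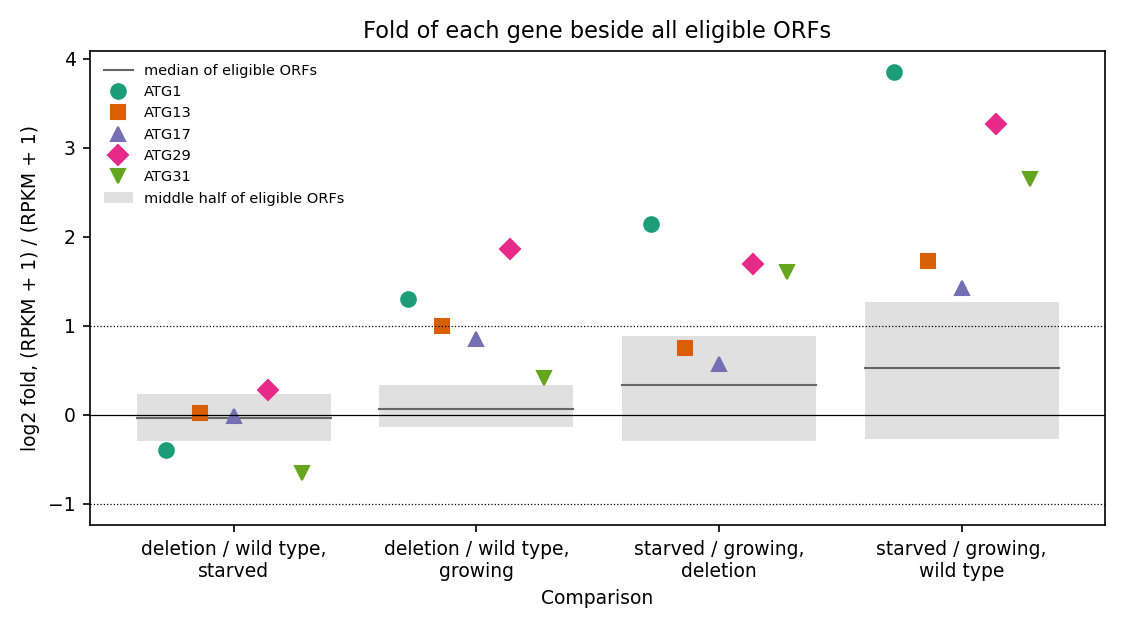
log2 fold of each gene (symbols) in the deletion over wild type, starved and growing, and in starved over growing cells, deletion and wild type, from 1 library on each side. Grey boxes are the quartiles and grey lines the median of all eligible ORFs, and dotted lines mark 2-fold; all 5 genes are above 0 in growing cells, from 0.41 for ATG31 to 1.86 for ATG29.

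After starvation none of the 5 was 2-fold apart between genotypes, while 9.44% of eligible ORFs were. The comparison asks whether Pho23 bears on the same transcripts once nitrogen is gone. The 5 summed to 260 RPKM in the starved deletion, against 298 RPKM in starved wild type, a ratio of 0.873. ATG31 was lower in the deletion, at 0.636 times wild type (interval 0.582 to 0.694), and so was ATG1, at 0.752 times (0.711 to 0.796). ATG29 was higher, at 1.22 times (1.11 to 1.34). For ATG13 (1.02 times, 0.961 to 1.07) and ATG17 (0.993 times, 0.891 to 1.10) the interval held 1, so that no difference was detectable at this depth.

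As log2 folds these were -0.65 for ATG31, -0.40 for ATG1, 0.28 for ATG29, 0.02 for ATG13 and -0.01 for ATG17. The median of the 5 was -0.01, against -0.04 over 5976 eligible ORFs. All 5 passed the filter and 0 of 5 reached 2-fold, against 9.44% of eligible ORFs that did so in either direction. A count of 0 of 5 lies near that share. ATG31, ATG1 and ATG29 were outside the quartiles of all eligible ORFs, -0.29 and 0.23, and ATG13 and ATG17 were inside. Most eligible ORFs, 90.5%, had a higher fold than ATG31, and 82.2% had a higher one than ATG1. Among the 25 core autophagy genes, ATG31 was at rank 23, ATG1 at 22 and ATG29 at 6. Scaling to equal sums moved the median of all ORFs by -0.14, and ATG13 was then at -0.12. ATG17 was at 0.09 with median-of-ratios scaling and at 0.02 with upper-quartile scaling. Relative to the median ORF, ATG13 was at 0.06, ATG17 at 0.03 and ATG31 between -0.61 and -0.60 under every scaling. A scaling divides a whole library by a common factor, so these relative values could hardly change and are no check.

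**Figure D4:**
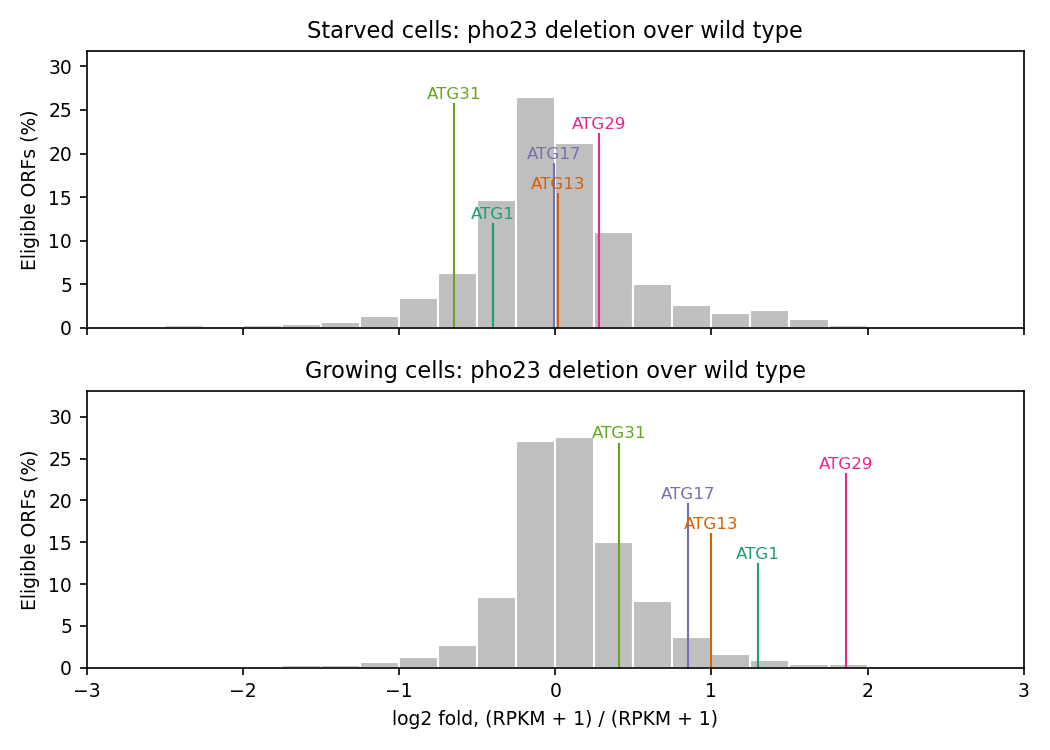
Distribution of log2 folds of the deletion over wild type across eligible ORFs (percent of ORFs per bar), starved cells above and growing cells below, with the 5 genes as lines; ORFs beyond the axis are not drawn. In starved cells the lines run from -0.65 to 0.28, and in growing cells from 0.41 to 1.86.

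In the deletion, starvation went with higher levels of all 5 transcripts, by 1.51-fold to 4.87-fold. The 5 summed to 260 RPKM in the starved deletion, against 101 RPKM in the growing deletion, a ratio of 2.57. ATG1 was at 4.87 times its growing level (interval 4.45 to 5.34), ATG29 at 3.33 times (2.96 to 3.75) and ATG31 at 3.12 times (2.75 to 3.53). ATG13 was at 1.70 times (1.61 to 1.80) and ATG17 at 1.51 times (1.35 to 1.68). The log2 folds were 2.15 for ATG1, 1.69 for ATG29, 1.60 for ATG31, 0.75 for ATG13 and 0.57 for ATG17. Thus 3 of 5 were at least 2-fold higher, against 22.4% of 5863 eligible ORFs, and the median of 1.60 stood beside 0.34 over those ORFs. ATG13 and ATG17 were inside the quartiles of all eligible ORFs, -0.30 and 0.89.

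In wild type the same change of medium went with larger folds. The 5 summed to 298 RPKM in starved wild type, against 48.8 RPKM in growing wild type, a ratio of 6.10. ATG1 was at 19.6 times its growing level (interval 16.7 to 23.1), ATG29 at 11.3 times (8.91 to 14.4) and ATG31 at 6.62 times (5.74 to 7.70). ATG13 was at 3.47 times (3.20 to 3.76) and ATG17 at 2.89 times (2.50 to 3.34). The log2 folds were 3.85 for ATG1, 3.27 for ATG29, 2.65 for ATG31, 1.73 for ATG13 and 1.43 for ATG17. All 5 were at least 2-fold higher, against 32.7% of 5956 eligible ORFs, and the median was 2.65 against 0.53 over those ORFs. Only 2.0% of eligible ORFs had a higher fold than ATG1 and 3.2% a higher one than ATG29, while 20.8% were above ATG17. Among the 25 core autophagy genes, ATG1 was at rank 2 in both genotypes, behind ATG8, for the ubiquitin-like protein that coats the autophagosome membrane.

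Both starvation comparisons depend on how libraries are scaled. Median-of-ratios scaling moved the median of all ORFs by -0.33 in the deletion and by -0.51 in wild type. Equal sums moved it by 0.16 in the deletion and 0.31 in wild type, and upper-quartile scaling by -0.18 and -0.28. ATG17 in wild type was at 0.93 with median-of-ratios scaling, under 2-fold. ATG1 in wild type also moved with the pseudocount, to 4.24 with 0.1 and 2.88 with 5. Folds relative to the median ORF could move only through the pseudocount and the filter, since a scaling divides a whole library by a common factor. Their narrow ranges over the scalings are thus no check of the folds. In the deletion they were 1.80 to 1.82 for ATG1 and 0.22 to 0.23 for ATG17. In wild type they were 3.29 to 3.37 for ATG1, 2.73 to 2.76 for ATG29 and 0.89 to 0.91 for ATG17.

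The starvation fold was smaller in the deletion than in wild type for each of the 5 genes. The log2 difference, deletion minus wild type, was -1.70 for ATG1, -1.58 for ATG29, -1.06 for ATG31, -0.98 for ATG13 and -0.86 for ATG17. The median of the 5 was -1.06, against -0.15 over 6034 eligible ORFs, and 3 of 5 were at -1 or lower, against 5.45% of those ORFs. With equal-sum scaling all 5 were at -1 or lower. The count was 2 with a pseudocount of 5 and with median-of-ratios or upper-quartile scaling, which put ATG31 at -0.96, -0.87 and -0.96. Under every scaling and pseudocount tried the difference stayed below 0 for each gene. For ATG1 it was -1.97 with a pseudocount of 0.1 and -1.13 with 5. The scalings moved the median of all ORFs by 0.19 (median of ratios), -0.14 (equal sums) and 0.10 (upper quartile). Relative to that median, where a scaling can hardly change a value, the differences were -1.60 to -1.53 for ATG1 and -0.73 to -0.71 for ATG17. As ratios of RPKM ratios, these were 0.249 for ATG1 (interval 0.207 to 0.299, normal approximation on the log scale), 0.294 for ATG29 (0.226 to 0.382) and 0.470 for ATG31 (0.389 to 0.569). For ATG13 the ratio was 0.491 (0.445 to 0.542) and for ATG17 it was 0.524 (0.438 to 0.626). With 1 library in each group this difference has no test across cultures.

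The difference is also the starved genotype fold minus the growing one, and the genes differed in where it lay. For ATG13 and ATG17 it lay in the growing libraries, with genotype folds of 0.02 and -0.01 in starved cells against 1.0 and 0.85 in growing cells. ATG29 was higher in the deletion in both media, at 0.28 starved and 1.86 growing. ATG1 was lower in the starved deletion and higher in the growing one, at -0.40 and 1.3. ATG31 showed the same change of sign, at -0.65 and 0.41, and was the only one of the 5 with the larger genotype fold in starved cells.

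Ratios between partners within a library need no scaling between libraries. The kinase transcript was at 0.697 times its partner ATG13 in the starved deletion (interval 0.659 to 0.737) and 0.941 times in starved wild type (0.890 to 0.995). It was at 0.244 times ATG13 in the growing deletion (0.222 to 0.267) and 0.167 times in growing wild type (0.140 to 0.198). So ATG1 was below ATG13 in each library, and nearest to it in starved wild type.

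The transcripts of the scaffold partners ATG29 and ATG31 were level in both deletion libraries and unequal in both wild-type libraries. ATG29 was at 1.07 times ATG31 in the starved deletion (interval 0.980 to 1.18), against 0.562 times in starved wild type (0.512 to 0.615). It was at 1.01 times ATG31 in the growing deletion (0.867 to 1.16), against 0.329 times in growing wild type (0.252 to 0.430). In each deletion library the interval held 1, and in each wild-type library it lay below 1. ATG13 to ATG17 varied least of the 6 pairings computed, at 2.09 and 2.05 in the starved deletion and wild type, against 1.86 and 1.70 in the growing deletion and wild type.

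**Figure D5:**
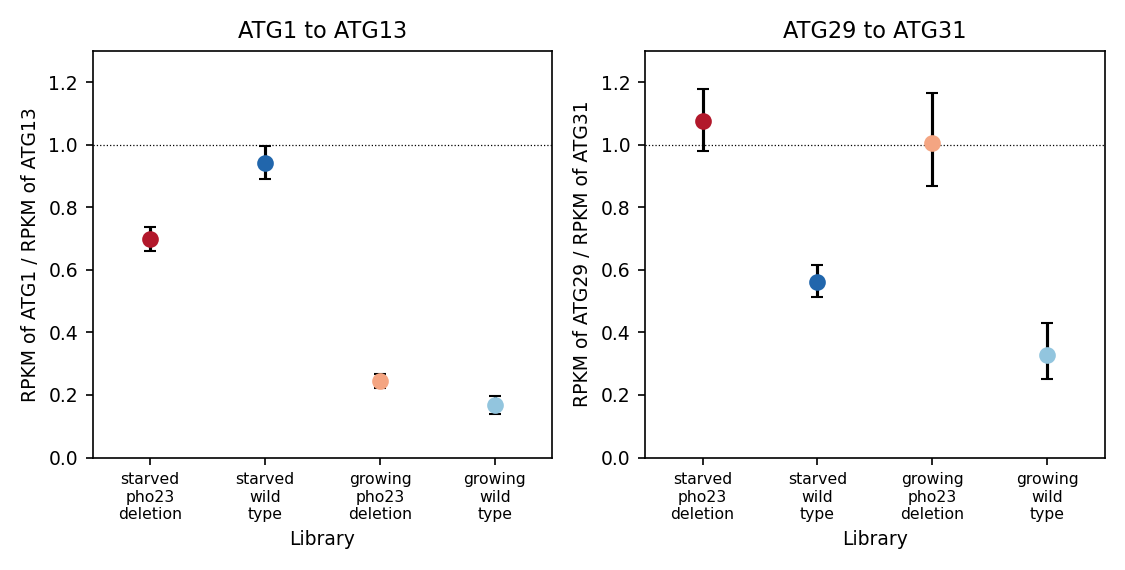
RPKM of ATG1 over RPKM of ATG13 (left) and of ATG29 over ATG31 (right) in each library, with 95% Clopper-Pearson intervals of the estimated reads. The ATG1 ratio is highest in starved wild type (0.941), while the ATG29 ratio is near 1 in both deletion libraries and at 0.562 and 0.329 in starved and growing wild type.

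The genes lie on 4 chromosomes. Of 11 ORFs that flank or overlap them, 7 passed the filter in growing cells. Of these, 2 were at least 2-fold higher in the growing deletion than in growing wild type, against 3.95% of eligible ORFs. They were SET6, which overlaps ATG29, and MLH3, which lies 1370 bases from ATG29 with SET6 between them. Between starved genotypes all 11 passed the filter and MLH3 alone was at 2-fold, near the 9.44% of eligible ORFs that were so in either direction. Positions are those of R64. ATG1 is at chromosome VII, 160065 to 162758, ATG13 at XVI, 907218 to 909434, ATG17 at XII, 971917 to 973170, ATG29 at XVI, 237338 to 237979, and ATG31 at IV, 488072 to 488662. The ATG29 ORF overlaps SET6, for a SET domain protein, by 24 bases on the opposite strand at their 3′ ends. That is 3.7% of the ATG29 ORF, and since the use of strand in counting is not given in the sources used here, reads of the shared stretch cannot be assigned. SET6 had a profile close to that of ATG29, at 89.1 and 70.7 RPKM in the starved deletion and wild type, against 27.0 and 7.63 RPKM in the growing deletion and wild type. Between genotypes its log2 fold was 0.33 starved and 1.70 growing. MLH3, a mismatch repair gene on the far side of SET6, was at 31.5 and 11.1 RPKM in the starved deletion and wild type, against 23.8 and 10.9 RPKM in the growing deletion and wild type. What the shared reads add to either gene was not tested.

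GTS1, which ends 968 bases before ATG1 on the same strand, differed between genotypes by a log2 fold of -0.11 in starved cells and 0.90 in growing ones, and the difference of its starvation folds was -1.01. GDB1, for the glycogen debranching enzyme, ends 563 bases before ATG13. Its genotype fold was 0.14 starved and 0.00 growing, with 2.28 RPKM in the growing deletion, against 2.29 RPKM in growing wild type. SPP382, a splicing factor gene that starts 224 bases from ATG17 and is read away from it, was at 0.50 starved and 0.19 growing. REV3, for a DNA polymerase subunit and likewise read away from ATG29 across 230 bases, was at 0.16 starved and 0.41 growing. Downstream of ATG1, ATG13 and ATG17 lie TOS3, PZF1 and DCK1, in that order. Their genotype folds were -0.31, 0.09 and 0.11 starved and 0.55, 0.23 and 0.15 growing. FAL1, downstream of ATG31 across 68 bases on the opposite strand, was at 0.79 starved and 0.03 growing. Its starvation fold was -0.40 in the deletion and -1.16 in wild type. SES1, for seryl-tRNA synthetase, starts 845 bases from ATG31 and is read away from it. It was at 374 and 261 RPKM in the starved deletion and wild type, against 611 and 619 RPKM in the growing deletion and wild type, so that SES1 was lower in starved cells and ATG31 higher.

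Each gene was also set against all 6034 ORFs that reached 10 RPKM in any library, by the Euclidean distance between log2(RPKM + 1) profiles over the 4 libraries, each centred on its own mean. Nearest to ATG1 were YER079W at a distance of 0.08, YER078W-A at 0.17 and HSP104, for a protein disaggregase, at 0.17. Nearest to ATG13 were RDL1 at 0.06, DCS1 at 0.09 and OSH6, for a lipid transfer protein, at 0.09. Nearest to ATG17 were YJL068C at 0.07, MMF1 at 0.07 and YER066C-A at 0.08. Nearest to ATG29 were ATG42, for a vacuolar carboxypeptidase, at 0.09, UBC8, for a ubiquitin-conjugating enzyme, at 0.15 and SET6 at 0.16. Nearest to ATG31 were YPR059C at 0.12, ATG38, for a subunit of the autophagy-specific lipid kinase complex, at 0.14 and YKL107W at 0.16. YER066C-A and YPR059C had no match in RefSeq R64. Whether either overlaps another gene and shares its reads was therefore not examined.

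Among themselves the 5 were 0.26 to 2.04 apart by this measure, and the ranks given here are among the 6034 ORFs. ATG13 and ATG17 were 0.26 apart, and ATG17 was the ORF at rank 49 in nearness to ATG13. ATG1 and ATG29 were 0.81 apart, with ATG29 at rank 88 for ATG1, ATG31 at 224 and ATG13 at 846. ATG31 was at 1.09 from both ATG1 and ATG13, at 1.25 from ATG17 and at 1.27 from ATG29. The widest gap was 2.04, between ATG1 and ATG17, with ATG17 at rank 1211 for ATG1 and ATG1 at rank 4950 for ATG17.

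The other core autophagy genes, a list of 20, give the setting of these values. In growing cells 4 of the 16 that passed the filter were at least 2-fold higher in the deletion and none lower, against 3.95% of eligible ORFs higher, and the median of all 20 was 0.69, against 1.0 for the 5 genes of the complex. They were ATG7, for the E1-like enzyme, at 1.97, ATG14 at 1.61, ATG8 at 1.20 and the Atg8 protease gene ATG4 at 1.03. ATG9, below the filter, was at 8.59 RPKM in the growing deletion, against 2.81 in growing wild type (1.33). In starved cells none of the 20 was 2-fold apart between genotypes among those that passed the filter, against 9.44% of eligible ORFs. The median of all 20 was 0.08, against -0.01 for the complex. ATG10, below the filter, was at 3.34 RPKM in the starved deletion, against 8.56 in starved wild type. After starvation 11 of 18 that passed the filter were at least 2-fold higher in the deletion, against 22.4% of eligible ORFs, and 14 of 19 in wild type, against 32.7%. VPS15, below the filter, was at 1.07 in wild type. The medians of all 20 were 1.11 in the deletion and 1.65 in wild type, against 1.60 and 2.65 for the complex. The difference of starvation folds was -1 or lower for 3 of 19 that passed the filter, against 5.45% of eligible ORFs. They were ATG7 at -1.77, ATG14 at -1.24 and ATG38 at -1.12, with a list median of -0.69, against -1.06 for the complex.

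Proteins that act on or with the complex were described by a list of 5 genes. None was 2-fold apart between genotypes, with medians of -0.25 starved and 0.29 growing. Of eligible ORFs, 9.44% were 2-fold apart in starved cells, and in growing cells 3.95% were higher and 2.08% lower. After starvation ATG11, for the scaffold of selective autophagy, was at 32.6 RPKM in the starved deletion against 12.6 in the growing deletion (1.31), and at 30.2 in starved wild type against 8.21 in growing wild type (1.76). TRS85, for a subunit of a Ypt1 activator, was at 1.01 in wild type. The list medians were 0.46 in the deletion and 0.69 in wild type, and -0.40 for their difference. VAC8, whose vacuolar membrane protein binds Atg13, was at -0.08 in the deletion and 0.32 in wild type.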

How the data were processed

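Transcripts were sequenced in 4 libraries. The submitters' processing notes name CASAVA 1.8.2, Bowtie2 2.1.0 and the build sacCer3. The authors deposited RPKM for each ORF. How reads were counted, on which annotation and whether by strand, is not given in the sources used here. Gene symbols and coordinates were taken from RefSeq R64, which matched 5997 of 6678 ORFs; overlaps with the other 681 were not examined.

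Folds were log2((RPKM + 1)/(RPKM + 1)) without further scaling. An ORF was eligible at 10 RPKM in at least 1 library compared and was called at 2-fold. No test was run, since each group has 1 library. To estimate reads, RPKM was multiplied by ORF length in kb, and the most frequent product between 0.03 and 0.06 was taken as 1 read. With it, 38.8% to 43.9% of values below 100 reads fell within 0.1 of whole reads (20% expected without steps), so the estimate is rough. Alternatives were pseudocounts of 0.1 and 5, no filter, a minimum of 30 RPKM, and 3 scalings. The procedure was also run on simulated whole-read counts with planted changes and Poisson error only. That run had no variation between cultures. It checks the code, and cannot check the read estimate or the 2-fold calls in these data.

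The 5 genes and the gene lists were chosen with earlier results of these data known. The text names the 5 genes, their flanking or overlapping ORFs, PHO23, the 3 ORFs nearest in profile to each, and up to 4 listed genes at 2-fold; VAC8, VPS15, ATG9 and ATG10 were named after their values were seen, and the values of 1 listed gene are not reported here. Lists were other core autophagy genes, binding partners, upstream kinases and phosphatases, mRNA decay and translation factors, transcription regulators, nitrogen-repressed genes, and alpha-cell and a-cell markers. Python 3.11.15, numpy 2.4.6, pandas 2.3.3, scipy 1.17.1 and matplotlib 3.10.9 were used.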

Additional observations from a re-analysis of the deposited data

Results flagged for a closer look

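The genotype fold of 3 genes had opposite signs in the 2 media, and this difference was not tested, since each group has 1 library. ATG1 had a log2 fold of deletion over wild type of -0.40 in starved cells and 1.3 in growing cells. ATG31 was at -0.65 starved and 0.41 growing. ATG17 was at -0.01 starved and 0.85 growing. The starved value of ATG17 lay within counting error of 0 and turned positive with median-of-ratios (0.09) and upper-quartile (0.02) scaling.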

How the results depend on the processing

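No paired analysis was possible because each group has 1 library, and no library could be left out. Over 5 alternatives of pseudocount and scaling, 125 folds of single genes were recomputed. Of these, 76 moved by no more than the reach of the counting interval on either side, 49 moved by more, and no fold of 2-fold or more changed sign. In growing cells the count of 2 genes at 2-fold became 1 with a pseudocount of 5, with median-of-ratios scaling, with upper-quartile scaling and with a minimum of 30 RPKM. ATG13 was then at 0.86 with the pseudocount and at 0.92 with median-of-ratios scaling. The count of 3 for the difference of starvation folds became 5 with equal sums and 2 with a pseudocount of 5, median-of-ratios or upper-quartile scaling. The median of the 5 genes for starvation in the deletion, 1.60, became 1.27 with median-of-ratios, 1.76 with equal-sum and 1.41 with upper-quartile scaling. In wild type it was 2.65 and became 2.14, 2.96 and 2.38 in the same order, and 2.40 with a pseudocount of 5. The starved genotype median, -0.01, became -0.15 with equal sums. The scalings move all ORFs of a library alike. The ATG29 folds against growing wild type are limited by its estimated 78 reads there.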

Other observations

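The genes for kinases and phosphatases upstream of the complex, a list of 18, had a median genotype log2 fold of -0.13 in starved cells and of 0.10 in growing cells. In starved cells none was 2-fold apart, against 9.44% of eligible ORFs. After starvation the list median was 0.14 in the deletion and 0.37 in wild type, and -0.31 for their difference. LST8, for a TORC1 subunit, was at 94.2 RPKM in the starved deletion, against 38.1 in the growing deletion (1.28), and at 134 RPKM in starved wild type, against 38.4 in growing wild type (1.77). SCH9, for a kinase that TORC1 activates, was at 1.13 in the deletion and 1.59 in wild type.

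Of 7 genes for factors of mRNA decay and translation known to act on ATG transcripts, none was 2-fold apart between genotypes, with medians of -0.14 starved and -0.10 growing. Of eligible ORFs, 9.44% were 2-fold apart in starved cells, and in growing cells 3.95% were higher and 2.08% lower. The only 1 at 2-fold in a starvation comparison was LSM1, which encodes a subunit of the decapping activator ring. It was at 104 RPKM in starved wild type, against 222 in growing wild type (-1.09), and at 110 RPKM in the starved deletion, against 208 in the growing deletion (-0.92). The lower quartile of all eligible ORFs was -0.30 in the deletion and -0.27 in wild type. The share of all ORFs that were 2-fold lower after starvation is not given here. LSM1 as 1 of 7 is thus no result about the list. The list medians were 0.22 for starvation in the deletion, -0.04 in wild type and 0.18 for their difference.

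Of 10 transcription regulators of ATG genes, UME6 alone was 2-fold apart between genotypes, at 30.8 RPKM in the starved deletion, against 12.4 in starved wild type (1.25), and at 29.6 in the growing deletion, against 16.2 in growing wild type (0.83). This 1 of 10 in starved cells lay near the 9.44% of eligible ORFs that were 2-fold apart there. The list medians were -0.06 starved and 0.11 growing. After starvation 3 of 10 were at least 2-fold higher in the deletion (median 0.57), against 22.4% of eligible ORFs, and 4 of 10 in wild type (median 0.88), against 32.7%, so that these shares lay near those of all ORFs. GAT1, a GATA activator, was at 3.05 in the deletion and 3.5 in wild type, GLN3 at 1.82 and 2.33 and MSN4 at 2.02 and 2.21, again with the deletion given before wild type. RPH1, a repressor of ATG7 and other autophagy genes, was at 0.63 in the deletion and 1.22 in wild type. None of the 10 had a difference of starvation folds of 1 or more in either direction. Of eligible ORFs, 5.45% were at -1 or lower, so such a count lies near the share of all ORFs.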
